A study of Mus musculus with 9 samples.

Results

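Cochleae of Pou4f3 homozygous mutant mice were compared with those of wild type mice by RNA-seq at postnatal day 3, in 3 libraries of each genotype out of 9 in the series. Groups follow the titles: Pou4f3(+/+), called WT here, and Pou4f3(Δ/Δ), called HOM, with Pou4f3(Δ/+), called HET, given beside them. The members are the 1137 genes that the HOM libraries list, out of 51912 listed in WT and HET, and the remaining genes were left out for HOM. In 9 of 9 samples the genotype characteristic disagrees with the title, so every direction below depends on the titles. The extent of the Δ allele, the strain, and whether a library holds 1 animal or several are not stated in the sources used here. The p values therefore measure the spread between these libraries, which may be technical.

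Pou4f3 is a POU-domain transcription factor that in the inner ear is made by hair cells, the sensory cells that turn sound into electrical signals. It is needed for hair cells to mature and survive, and its loss in mice and mutation in humans cause deafness. A hair cell carries a bundle of actin-filled stereocilia at its top, with transduction channels near the tips and links between neighbouring stereocilia. At its base it releases glutamate onto spiral ganglion neurons at ribbon synapses, and it receives cholinergic efferent input. Hair cells are a small part of the cochlea, which also holds supporting cells, mesenchyme, neurons, glia and the stria vascularis. In such bulk samples, fewer hair cells and less RNA per hair cell cannot be told apart.

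Values are FPKM, fragments scaled to gene length and library depth. Recovered depth was between 14.32 and 17.02 (in units of 1e6 fragments) in the 6 HOM and WT libraries. In WT, markers of the tectorial membrane and otic matrix summed to between 5953 and 6548 FPKM per library and skeletal muscle markers to between 2.44 and 4.28, so the otic markers of the labelled tissue were present. Most of these markers are not listed in HOM, so the same sums cannot be given there. In all 1137 listed genes no HOM library fell within the WT range (100% of those tested), and an equal-variance two-sample comparison of the FPKM values gave an unadjusted p below 0.05, the largest being 0.04997. The members were thus chosen on the contrast described here, and sizes and spread are given as a description. In limma on log2(FPKM + 1), 1032 of the 1109 genes that reached 1 FPKM in 3 or more libraries passed an adjusted p of 0.05, or 93.1%, and nothing is read from that share. Of the 1109, 65.4% were called lower in HOM and 27.7% higher. Listed members of a gene list passed this selection too, so nothing is read from all of them being called. The gene lists were chosen with earlier results of these data known, and their medians cover listed members only. The same selection applied to HET against WT found 476 of 15391 genes at that level, of which 9 were lower by 1 log2 unit or more and 3 higher. Among the genes listed for HOM, 127 fell by 1 log2 unit or more (11.5% of those tested) and 1 rose by as much (0.0902%).

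The falls were larger than the rises. Of the 1137 genes 794 were lower in HOM and 343 higher, with a median change of -0.36 among the tested genes that were lower and 0.21 among those that were higher. In HOM 29 genes kept under 10% of their WT mean and 56 kept between 10% and 25%, whereas 5 genes were above 200%. The largest class, 284 genes, kept between 75% and 90%. The 127 genes that fell by 1 log2 unit or more summed to 1794 FPKM in WT, which is 0.621% of all WT FPKM, and to 441.5 FPKM in HOM. At the small end, Phldb1 was at 16.52, 16.74 and 16.67 FPKM in WT and 15.98, 15.95 and 16.04 in HOM (-0.05, adjusted p = 0.132), and Copg2 at 19.77, 20.32 and 19.98 in WT and 20.57, 20.64 and 20.57 in HOM (0.04, adjusted p = 0.26). Neither passed limma, although their libraries do not overlap. Scaling the libraries on the listed genes by median ratios or upper quartiles moved the median of all changes up by 0.18 and 0.22, and 128 and 165 called genes then changed sign, so a small fall can turn into a rise under another scaling. The genes that fell by 1 log2 unit or more then numbered 101 and 97, and those that rose by as much 4 and 4. Most listed genes were lower in HOM, so scaling on them draws all changes upward by construction. These scalings therefore cannot tell which sign of a small change is right.

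**Figure D1:**
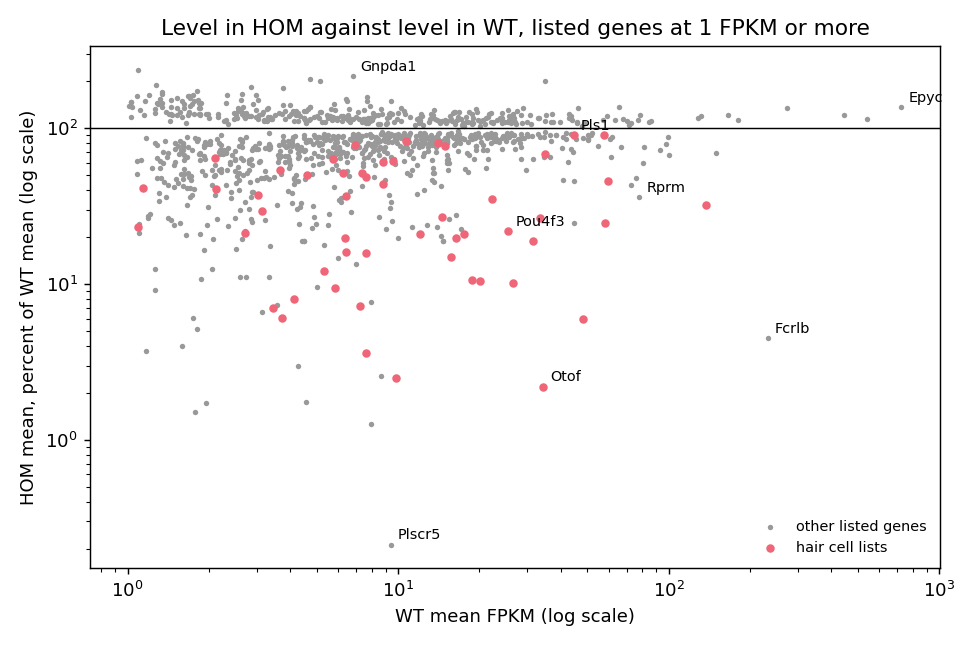
Each point is a listed gene that reached 1 FPKM in 3 or more libraries, with its WT mean FPKM on the horizontal axis and its HOM mean as a percent of the WT mean on the vertical axis, both on log scales; 3 genes at 0 in all HOM libraries are not drawn. Genes of the hair cell lists, in red, reach down to 2.20% of WT for Otof, and Gnpda1 stands at 217%.

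Pou4f3 itself was at 25.02, 24.49 and 26.97 FPKM in WT, 24.21, 21.74 and 25.56 in HET and 5.92, 1.36 and 9.39 in HOM. All HOM libraries were below all others, and the highest of them was 6.90 times the lowest. The change was -2.26 ± 0.51 (SE, n = 3 against 3; limma adjusted p = 0.0114). Without the extent of Δ it is not known whether the remaining fragments come from the deleted part. The gene (ENSMUSG00000024497) lies at chr18:42394539-42397249 on the + strand in GRCm38.

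Gfi1, Lhx3 and Atoh1, other transcription factors of hair cells, were lower too. On the list of 11 such factors, Pou4f3 among them, 10 were expressed in WT (1 FPKM or more in all WT libraries), 4 were listed in HOM and all 4 passed in the lower direction, with a median change of -2.04 against -0.22 over all tested genes. Over all genes, 7.81% of those expressed were listed and 65.4% of those tested were called lower. Gfi1, a zinc finger repressor reported as a Pou4f3 target and needed for hair cell survival, was at 8, 7.17 and 7.63 FPKM in WT and 1.47, 0.21 and 1.91 in HOM (-2.06 ± 0.32). Lhx3, a LIM homeodomain factor of hair cells, was at 5.19, 4.46 and 6.36 in WT and 0.55, 0.02 and 1.36 in HOM (-2.02 ± 0.30). Both were lowest in HOM replicate 2, where Lhx3 was close to 0. Atoh1, the factor that starts hair cell differentiation, fell from 4.68, 4.34 and 4.77 FPKM to 1.88, 1.61 and 3.47, so that 50.5% of WT remained. Bdnf, a neurotrophin made by hair cells and also reported as a Pou4f3 target, kept 37.1% (-0.82 ± 0.15). Nr2f2, another reported target, was at 19.28 to 20.31 FPKM in WT and 17.92 to 18.77 in HOM and did not pass (adjusted p = 0.0577); with median-ratio and upper-quartile scaling it was higher in HOM (0.12 and 0.16) and passed (adjusted p = 0.047 and 0.024). Gfi1, Lhx3, Bdnf and Nr2f2 are the 4 listed of 6 reported targets, all expressed in WT, and 3 of the 4 were called, with a median change of -1.42.

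Among synaptic genes the largest change was in Otof, which encodes otoferlin, the calcium sensor for vesicle release at the ribbon synapse. Otof was at 34.36, 33.58 and 35.34 FPKM in WT and 0.87, 0.29 and 1.11 in HOM, a change of -4.36 ± 0.18 (adjusted p = 3.03e-05). All HOM libraries kept under 4% of the WT mean. The other listed synaptic genes had smaller changes. Cacna1d, a calcium channel subunit of the ribbon synapse, was at 7.90 to 10.75 FPKM in WT and 5.68 to 6.09 in HOM (-0.60). Ctbp2, whose RIBEYE form builds the ribbon and which is also a corepressor made widely, kept 83.5% (-0.24, and 0.0014 under upper-quartile scaling). Median-ratio scaling ended the call of Ctbp2. Those 3, all called lower (65.4% of all tested genes), were listed among 7 expressed synaptic genes (7.81% of all expressed genes). Slc17a8, the glutamate transporter of synaptic vesicles, was expressed in WT but is not listed in HOM.

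Genes of the transduction apparatus were listed in 6 of 8 expressed members (7.81% of all expressed genes). All 6 passed in the lower direction (65.4% of all tested genes) with a median change of -1.89. Lhfpl5, a subunit of the transduction complex that binds the tip link, fell most, from 26.17, 23.60 and 29.87 FPKM in WT to 2.24, 0.79 and 5.09 in HOM (-3.06 ± 0.42). The pore proteins Tmc1 and Tmc2 were low in every HOM library. Tmc1 was at 3.03, 4.18 and 3.18 FPKM in WT and 0.24, 0.21 and 0.28 in HOM, and Tmc2 at 4.48, 3.59 and 3.06 in WT and 0.33, 0.04 and 0.30 in HOM. Tomt, which is needed to bring the TMC proteins to the bundle, kept 16.0% (69.3% of its exon bases overlap Anapc15 on the opposite strand, and the sources used here do not say whether counting used strand). Cib2, a calcium-binding partner of the TMC proteins, kept 45.7%, and Tmie, another subunit, 77.9%; with median-ratio or upper-quartile scaling Tmie no longer passed. Pcdh15 and Cdh23, which form the tip link, were expressed in WT but are not listed.

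Genes for Usher and link proteins, whose loss causes combined deafness and blindness or deafness alone, were listed in 6 of 6 expressed members. All 6 passed in the lower direction (65.4% of all tested genes) with a median of -0.63, and 7.81% of all expressed genes were listed. Myo7a, the myosin that anchors the tip link, was at 8.02, 8.77 and 9.58 FPKM in WT and 4.12, 1.86 and 5.53 in HOM (-1.10 ± 0.29). Whrn, a scaffold at stereocilia tips and ankle links, was at 6.27, 5.69 and 5.34 in WT and 3.68, 3.64 and 3.64 in HOM (-0.54 ± 0.06). Whrn was nearly level across the HOM libraries while Myo7a differed among them. Pdzd7, an ankle link scaffold, kept 51.3%, and the membrane proteins Clrn1 and Clrn2 kept 53.7% and 41.1%. Ush1c, which encodes harmonin, kept 90.7% (-0.14), and its sign turned under the other scalings. Leaving out 1 library ended the call of Clrn1 (HOM 1 or any WT library, adjusted p up to 0.080) and Ush1c (HOM 2, WT 1 or WT 2, up to 0.064). Clrn1 did not pass under the other scalings either (up to 0.11), Ush1c did not pass with HET in the fit (0.155), and without HOM 2 the change of Clrn1 was -0.45 in place of -0.71.

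Among genes of the stereocilia actin core 11 of 14 expressed members were listed (7.81% of all expressed genes). All 11 passed in the lower direction (65.4% of all tested genes) with a median of -0.93. Espnl, an espin-like actin-binding protein, was at 15.22, 16.14 and 15.64 FPKM in WT and 2.80, 0.60 and 3.59 in HOM (-2.46 ± 0.38). Myo15, the myosin that carries the tip elongation complex, was at 3.66, 3.44 and 5.30 in WT and 0.31, 0.30 and 0.38 in HOM (-1.93 ± 0.14). Fscn2, an actin crosslinker, was at 6.30 to 6.54 in WT and 2.48, 0.75 and 3.85 in HOM. Myo15 was again nearly level over the HOM libraries, and the other 2 were lowest in HOM replicate 2. Elmod1, an activator of Arf GTPase hydrolysis needed for stable stereocilia, kept 21.2%, and Myo3b, a myosin of stereocilia tips, 29.4%. Espn, which bundles actin, kept 49.0%, Myo3a 40.8%, Eps8l2, a tip protein, 51.8%, Xirp2, a repair protein of the core, 23.2%, and Triobp, which forms the rootlets, 80.2%. Pls1, plastin 1, which is also made outside hair cells, kept 90.4%, and its sign turned under both other scalings. Leaving out 1 library ended the call of Espn (HOM 1 or any WT library, adjusted p up to 0.059), Myo3a (any WT library, up to 0.074), Fscn2 (WT 1 or WT 2, up to 0.051) and Pls1 (HOM 2, 0.051). Triobp, Espn and Myo3a did not pass under the other scalings either, nor Myo3a with a pseudocount of 0.1, and without HOM 2 the change of Myo3a was -0.48 in place of -0.81.

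Genes for the bundle surface and bundle shape had the largest median change of the bundle lists, -2.48 over the 7 listed of 8 expressed members. Of all expressed genes 7.81% were listed, and Cdc14a, also expressed in WT, is not listed. All 7 listed members passed in the lower direction (65.4% of all tested genes). Grxcr2, a cysteine-rich protein of the stereocilia base, was at 50.30, 45.79 and 48.46 FPKM in WT and 2.93, 0.88 and 4.88 in HOM (-3.81 ± 0.39). Its relative Grxcr1 was at 21.06, 19.23 and 20 in WT and 1.83, 0.25 and 4.27 in HOM (-2.99 ± 0.48). Loxhd1, a stereocilia membrane protein, fell from 8.04, 7.67 and 7.10 to 0.42, 0.02 and 0.39 (-2.77 ± 0.14). For each of these genes HOM replicate 2 was the lowest library. Kncn, kinocilin, a microtubule-associated protein of the kinocilium and cell apex, kept 7.25%, Strc, stereocilin, which joins stereocilia to one another and to the tectorial membrane, 19.7%, and Ptprq, a phosphatase of the shaft connectors, 21.1%. Myo6, the minus-end myosin of the cuticular plate, which many other cells make, kept 68.1%, and did not pass under the other scalings.

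Efferent receptor and potassium channel genes were listed in 5 of 6 expressed members (7.81% of all expressed genes). All 5 passed in the lower direction (65.4% of all tested genes) with a median of -1.0. Chrna10, a subunit of the efferent nicotinic receptor, was at 17.66, 16.88 and 21.96 FPKM in WT and 1.99, 0.47 and 3.53 in HOM (-2.86 ± 0.39); 39.0% of its exon bases overlap Art1 on the opposite strand. Its partner Chrna9 was at 3.81, 2.77 and 2.51 in WT and 1.76, 0.20 and 1.41 in HOM (-1.0 ± 0.32), and lost its call without any 1 of the WT libraries (adjusted p up to 0.079), with a pseudocount of 0.1 and under the other scalings (up to 0.070). Without HOM 2 the change of Chrna9 was -0.63. Kcna10, a voltage-gated potassium channel of hair cells, fell from 5.77, 5.45 and 6.34 to 0.77, 0.15 and 0.73. Kcnn2, the small-conductance channel coupled to the efferent receptor, kept 64.8%. Of the calcium list 2 of 7 expressed members were listed and called lower, beside the same 7.81% and 65.4%. Atp2a3, a calcium pump of the endoplasmic reticulum, was at 9.82, 10.09 and 9.48 FPKM in WT and 0.29, 0.16 and 0.28 in HOM (-3.12 ± 0.07, adjusted p = 1.95e-06). Ocm, oncomodulin, a calcium-binding protein of outer hair cells, was at 13.95, 14.61 and 15.15 in WT, 18.88, 21.24 and 19.92 in HET and 4.29, 0.54 and 6.93 in HOM (-1.96 ± 0.57). Ocm lost its call without any 1 of the WT libraries (adjusted p up to 0.055), and without HOM 2 its change was -1.26.

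Of the further hair cell identity markers 8 of 9 expressed members were listed (7.81% of all expressed genes). All 8 passed in the lower direction (65.4% of all tested genes) with a median of -2.04. Pcp4, a calmodulin-binding peptide that neurons also make, fell from 133.36, 137.63 and 142.11 FPKM to 49.61, 23.13 and 60.54 (-1.72 ± 0.33). Acbd7, an acyl-CoA binding protein, fell from 30.20, 35.30 and 35.36 to 8.42, 2.10 and 16.27 (-2.12 ± 0.58). Rasd2, a small GTPase, fell from 28.99, 30.95 and 34.93 to 6.76, 1.63 and 9.58 (-2.44 ± 0.49). In each the lowest HOM library was replicate 2 and the highest replicate 3. Ccer2 kept 24.6%, Tmem255b 20.8%, Cd164l2 19.9% and Smpx, a small muscle and hair cell protein linked to deafness, 34.9%. Anxa4, an annexin made by several cell types, kept 77.0%, and lost its call without WT 1 or WT 3 (adjusted p up to 0.061) and under the other scalings, as Acbd7 did without WT 2 (0.051). Slc26a5, which encodes prestin, the motor of outer hair cells, was listed too but not tested for its low level, at 1.70, 1.92 and 0.80 FPKM in WT, 1.26, 6.23 and 5.05 in HET and 0.46, 0.13 and 0.21 in HOM.

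Promoter sequence was searched for 2 short words in the 250 bases before each RefSeq start in GRCm38.p6, on both strands: AATTAAT, an AT-rich core of the kind POU4 factors bind, and CAGCTG, an E-box of the kind bound by factors such as Atoh1. AATTAAT was present in 4 of the 85 matched genes that fell by 1 log2 unit or more (4.71%) against 1.38% of 10140 expressed genes and 2.85% of all 27025, and in 4 of 74 that rose by 0.25 or more (5.41%). CAGCTG was present in 19 of the 85 (22.4%), in 19 of the 74 (25.7%), and in 14.4% of expressed genes. So neither word was held by falling genes alone, and a match is a description of letters, not a bound site. The windows below show the word in capitals, read along the gene's strand, for 3 bundle or hair cell genes with AATTAAT (found as its reverse complement ATTAATT) and 2 with CAGCTG.
Grxcr1 (chr5:68031708-68031764, + strand): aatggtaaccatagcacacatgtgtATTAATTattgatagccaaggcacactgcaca
Tomt (chr7:101903901-101903957, - strand): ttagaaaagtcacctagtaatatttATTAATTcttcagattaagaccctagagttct
Smpx (chrX:157698723-157698754, + strand): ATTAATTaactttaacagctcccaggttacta
Lhfpl5 (chr17:28575469-28575515, + strand): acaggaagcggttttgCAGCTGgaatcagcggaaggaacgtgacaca
Myo15 (chr11:60469232-60469287, + strand): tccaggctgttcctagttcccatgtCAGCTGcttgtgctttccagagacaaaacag
The word lies 95, 140, 243, 228 and 76 bases before the start in these windows, in that order, and Grxcr1 and Myo15 differ in how evenly they fell, as given above. Tomt holds another match to AATTAAT, 166 bases before another of its starts.

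Some of the largest falls were in genes outside the hair cell lists. Fcrlb, an Fc receptor-like gene, had the largest change among named genes, from 260.35, 227.77 and 210.31 FPKM in WT to 12.47, 1.02 and 17.95 in HOM (-4.86 ± 0.81, adjusted p = 0.0049). Pkhd1l1, which encodes a stereocilia coat protein, fell from 5.03, 4.46 and 4.17 to 0.12, 0.02 and 0.10. Chrna1, the muscle nicotinic receptor subunit, fell from 3.79, 4.02 and 4.96 to 0.13, 0.09 and 0.16, while skeletal muscle markers summed to at most 4.28 FPKM in WT. Each of these genes was at under 10% of WT in every HOM library. Defb25, a beta-defensin gene, kept 7.63%, and Dlk2, a delta-like membrane protein, 20.5%, with its highest HOM library at 5.86 FPKM and its lowest at 1.37. Kcnj13, an inward rectifier channel of epithelia, fell from 10.32, 8.97 and 9.11 to 2.97, 1.60 and 2.70; 49.1% of its exon bases overlap Gigyf2. Kcnj13 and the rising gene Ttr are the 2 listed of 5 expressed choroid plexus markers (7.81% of all expressed genes). Among noncoding or predicted genes, Gm13373 fell from 7.98, 8.07 and 7.77 to 0.11, 0 and 0.19, Gm4825 from 7.92, 8.58 and 9.40 to 0.51, 0 and 0.16, and Gm30191 from 39.05, 43.08 and 52.01 to 9.07, 6.29 and 17.86.

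Most of the steeply falling genes were near the WT level in HET. For the 127 genes that fell by 1 log2 unit or more the median HET level was 97.1% of WT, and in 25 of them (19.7%) HET lay apart from WT, lower in 19. That share was between 15.9% and 25.5% in the other size classes of listed genes, so it is near the background. Plscr5, of the phospholipid scramblase family, was at 8.68, 9.68 and 9.82 FPKM in WT, 3.81, 3.67 and 4.48 in HET and 0.06, 0 and 0 in HOM (-3.35 ± 0.07). That is 1 recovered fragment in HOM against 521 in WT, a level kept of 0.213% with a 95% counting interval of 0.0050% to 1.11%, which covers counting error only. Gm13373 was at 52.4% of WT in HET, with 3.37, 4.3 and 4.81 FPKM, and Grxcr2 at 71.6%, with 38.66, 32.27 and 32.56. In these 3 genes HET lay between WT and HOM with no overlap.

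Signalling genes of the sensory epithelium were mostly not listed, so no direction of a pathway is read here. In the Notch pathway, through which hair cells and supporting cells set each other's fate, 4 of 16 expressed members were listed. All 4 were called lower (65.4% of all tested genes) with a median of -0.55, and 7.81% of all expressed genes were listed. Jag1, a ligand made mainly by supporting cells, fell from 81.05, 80.23 and 82.27 FPKM to 65.21, 62.11 and 56.51 (-0.40 ± 0.06), and Dll4, another ligand, kept 46.7%. Mfng, a glycosyltransferase that tunes Notch, fell from 7.20, 7.71 and 9.64 to 4.51, 1.73 and 5.79. Nrarp, a Notch target and feedback inhibitor, kept 72.9% (79.4% of its exon bases overlap a predicted gene on the opposite strand). In the FGF list 3 of 15 expressed members were listed and called lower, beside the same 7.81% and 65.4%. Fgf8, the ligand made by inner hair cells that shapes pillar cells, fell from 3.79, 4.98 and 5.93 to 1.60, 0.49 and 1.88 (-1.38 ± 0.27), while the feedback inhibitors Spry4 and Spry2 kept 74.6% and 87.9%, the latter reversing sign under both other scalings. Of 16 expressed genes in the WNT and BMP list only Wnt4 was listed, at 5.88 to 6.83 FPKM in WT and 7.16 to 8 in HOM (0.23). Leaving out 1 library ended the call of Mfng (HOM 1 or any WT library, adjusted p up to 0.090), Spry2 (HOM 1, HOM 2, WT 2 or WT 3, up to 0.058) and Wnt4 (HOM 3, WT 1 or WT 3, up to 0.064). Without HOM 2 the change of Mfng was -0.58 in place of -0.97. Mfng and Spry4 did not pass under the other scalings, nor Jag1 and Nrarp under upper-quartile scaling.

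**Figure D2:**
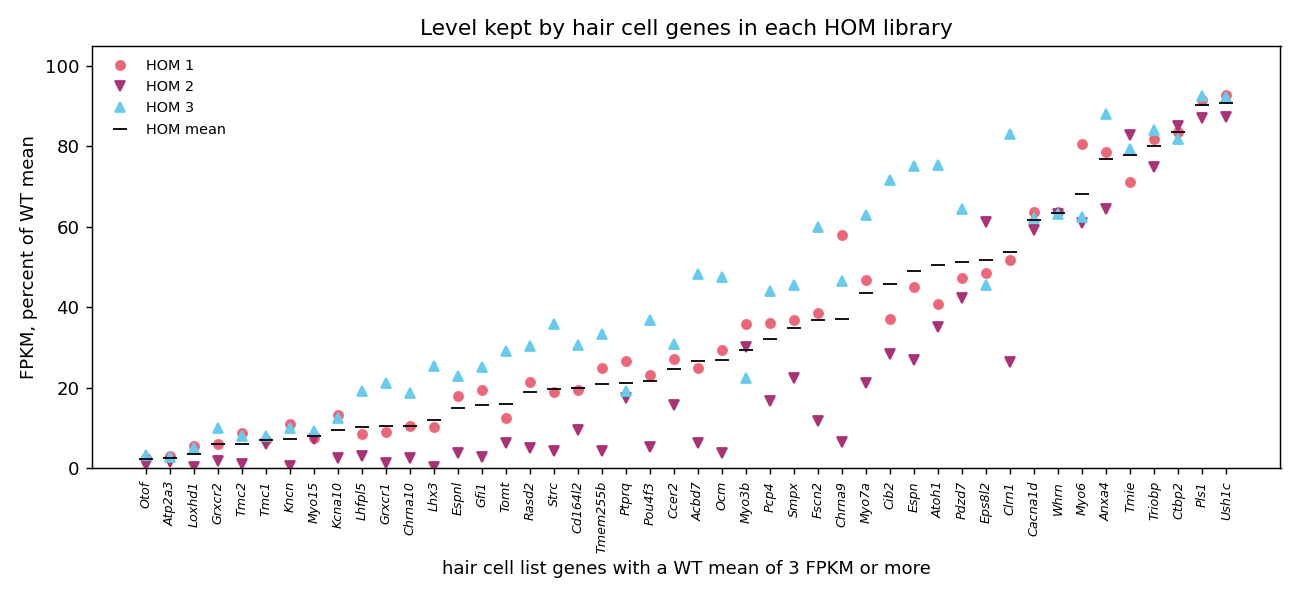
For 46 of the 47 hair cell list genes with a WT mean of 3 FPKM or more, the FPKM of each HOM library as a percent of the WT mean, ordered by the HOM mean (black bars). HOM replicate 2 (downward triangles) is the lowest library in 42 of the 47, and the median gene of the 47 keeps 27.3%, 9.63% and 36.8% of WT in HOM replicates 1, 2 and 3.

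The HOM libraries differed from one another in how much of the hair cell signal they kept. Over 47 listed genes of the hair cell lists with a WT mean of 3 FPKM or more, the median gene kept 26.6% of WT, with quartiles of 11.3% and 51.5% and a range from 2.20% for Otof to 90.7% for Ush1c. By library the median was 27.3% in HOM replicate 1, 9.63% in replicate 2 and 36.8% in replicate 3. The order replicate 2, then 1, then 3 was found in 31 of the 47 genes (65.96%), and replicate 2 was the lowest in 42. The level in replicate 3 was 2.97 times that in replicate 2 for the median gene. The median coefficient of variation was 49.98% among the HOM libraries, 7.70% among the WT and 11.3% among the HET. Leaving out HOM replicate 2 raised the median level kept to 30.0%, and leaving out replicate 3 lowered it to 21.5%.

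This order faded as the change became smaller. Among 127 genes that fell by 1 log2 unit or more it was found in 57.5%, among 170 that were lower by 0.5 to 1 in 37.6%, among 226 lower by 0.25 to 0.5 in 22.6%, and among 243 lower by under 0.25 in 16.5%. The higher genes had it in 20.95% (210 genes, under 0.25) and 18.05% (133 genes, 0.25 or more). In the falls under 0.25 each other order held 27 to 51 genes, against 40 with this order. The like counts were 28 to 39 against 44 in the smaller rises, and 12 to 38 against 24 in the larger ones. Outside the hair cell lists, 39 of 66 genes that fell by 1 or more with 3 FPKM or more in the WT mean had the same order (59.1%). The coefficient of variation in HOM was 49.1% in the steepest class, against 12.8% in WT, and 4.33% against 3.65% in the shallowest falls. Genes with a small change could be listed only with a small spread, so part of this decline follows from the selection. By the highest over the lowest HOM value of FPKM + 1, which gives low genes little weight, the widest coding genes with a WT mean of 3 FPKM or more were Fcrlb, Acbd7, Ocm, Pou4f3 and Grxcr1. By FPKM alone Lhx3 spread more, 68 times from lowest to highest. Its lowest value was 0.02 FPKM, so that ratio rests on few fragments, and genes with a HOM library at 0 have no such ratio.

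**Figure D3:**
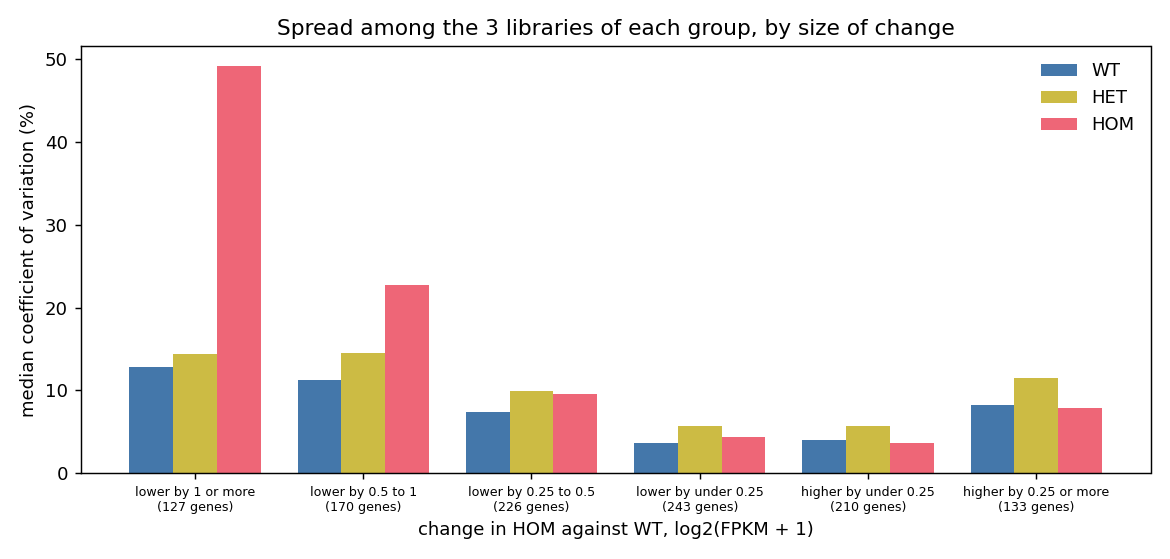
The median coefficient of variation (percent) over the 3 WT, 3 HET and 3 HOM libraries is shown for listed genes grouped by the size of the change in HOM against WT on the log2(FPKM + 1) scale. HOM reaches 49.1% in the 127 steepest falls, against 12.8% in WT, and is at 7.84% against 8.28% in the larger rises. Small changes could be listed only with a small spread, so part of the decline follows from the selection.

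Not every steep fall was graded in this way. Of 97 genes that fell by 1 log2 unit or more and had 3 FPKM or more in the WT mean, 4 had a HOM library at 0 and no ratio is given for them. Of the other 93, 13 had a highest HOM library under 1.5 times the lowest and 29 had one over 4 times, with a median of 2.62. The genes named next were picked after their values were seen. Pjvk, pejvakin, a deafness protein of hair cells and neurons, was at 4.74, 4.83 and 6.93 FPKM in WT and 1.28, 1.35 and 1.30 in HOM. Rprm, reprimo, a cell cycle inhibitor, was at 71.91, 77.40 and 84.31 in WT and 26.47, 29.30 and 28.71 in HOM. Trim45, a ubiquitin ligase, was at 14.28, 14.70 and 15.18 in WT and 2.57, 2.65 and 3.11 in HOM. The highest HOM library was at most 1.21 times the lowest in the 3 genes, and they were called with adjusted p of 0.000646, 6.12e-05 and 1.23e-05. Tmc1 and Myo15, given above, are among the 13 too.

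The largest rise among named genes was in Gnpda1. Gnpda1, glucosamine-6-phosphate deaminase, which links amino sugars to glycolysis, was at 7.25, 6.89 and 6.27 FPKM in WT, 11.98, 10.83 and 10.76 in HET and 15.78, 12.92 and 15.61 in HOM (1.01 ± 0.09, adjusted p = 0.000616). Ttr, the thyroxine and retinol carrier transthyretin, was at 34.80, 40.66 and 29.66 in WT, 65.72, 50.53 and 40.31 in HET and 69.95, 73.13 and 67.26 in HOM (0.99 ± 0.11). Umodl1, an uromodulin-like matrix protein, was at 5.14, 5.58 and 4.68 in WT, 4.63, 5.94 and 5.65 in HET and 10.82, 9.77 and 10.55 in HOM (0.89 ± 0.07). Gnpda1 was intermediate in HET without overlap, Ttr in HET overlapped WT but not HOM, and for Umodl1 HET overlapped WT and HOM lay above both. Rxrg, a retinoid X receptor, rose from 3.89, 4.93 and 5.32 to 8.31, 8.94 and 12.08 (0.91 ± 0.15). P2rx3, an ATP-gated channel of sensory neurons, rose from 2.21, 4.53 and 4.57 to 7.09, 5.57 and 7.83 (0.75 ± 0.24), and lost its call without HOM replicate 1 or 3 (adjusted p up to 0.066); without WT 1 its change was 0.49.

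**Figure D4:**
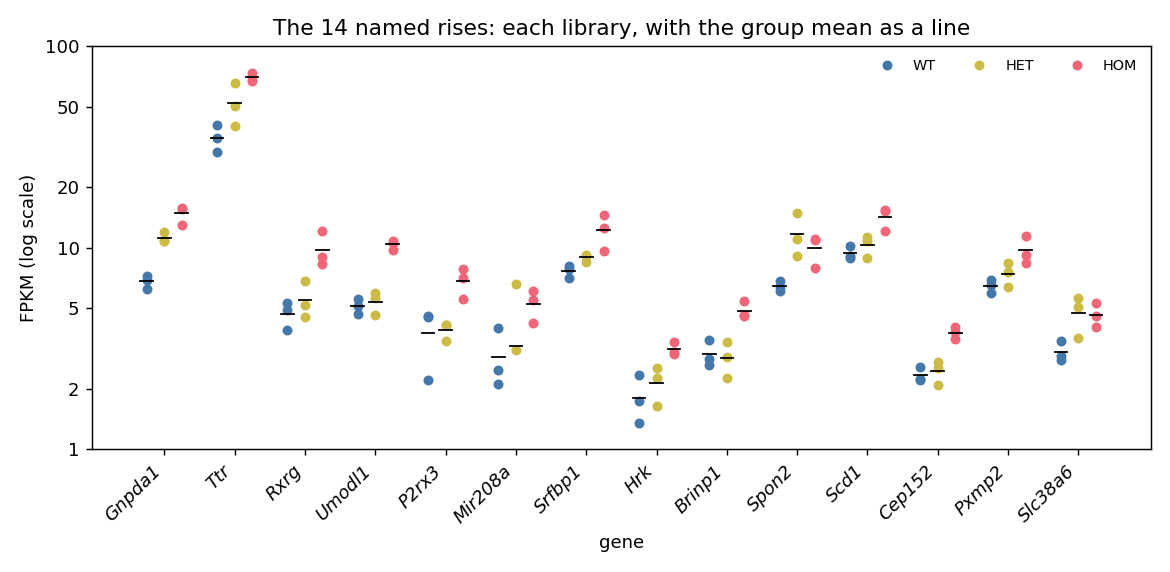
Points are the FPKM (log scale) of each WT, HET and HOM library for 14 named rises, with group means as lines; the HET 2 value of Mir208a, listed at 0, is not drawn. HOM means lie between 149% (Pxmp2) and 217% (Gnpda1) of the WT mean. That the HOM points lie above the WT points follows from the selection of the genes.

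Further rises were smaller. Scd1, a fatty acid desaturase, rose from 9.11, 10.22 and 8.91 FPKM to 15.44, 15.13 and 12.03, and Pxmp2, a peroxisomal channel, reached 149% of WT. Hrk, a BH3-only inducer of cell death, rose from 2.34, 1.73 and 1.35 to 3.40, 2.97 and 3.05 FPKM, and Pidd1, a p53-induced activator of caspase-2, reached 150% of WT. Both are on a list of p53 and apoptosis genes of which 3 of 13 expressed members were listed (7.81% of all expressed genes). All 3 were called higher (27.7% of all tested genes). Most members were not listed, so no direction of that process is read. Srfbp1, which binds serum response factor, Brinp1, a neuronal protein, and Cep152, a centriole protein, rose by 0.59, 0.57 and 0.53, and the predicted genes Gm20257 and Gm10156 by 0.58 and 0.54. Mir208a was at 185% of WT by mean FPKM but rests on 20 recovered fragments in HOM against 11 in WT, with a counting interval of 85.6% to 433%, and lost its call without WT 1 or WT 2 (adjusted p up to 0.056) and with HET in the fit (0.28). Spon2, a matrix protein, and Slc38a6, an amino acid transporter, were higher in HET (180% and 156% of WT) than in HOM (154% and 153%).

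Markers of other cochlear cells were mostly not listed. Of all expressed genes 7.81% were listed, and of all tested genes 27.7% were called higher and 65.4% lower. Of 19 expressed supporting cell genes 3 were listed, all called higher: Gjb2 and Gjb6, the connexins of cochlear gap junctions, at 121% and 123% of WT, and Epyc, a matrix proteoglycan of supporting cells, at 137%. Epyc was at 695.96, 687.62 and 787.59 FPKM in WT and 952.13, 1050.07 and 963.31 in HOM, and 40.6% of its exon bases overlap a predicted gene on the opposite strand. Of 13 expressed mesenchyme genes Dcn, Lum and Fmod, small leucine-rich proteoglycans, were listed at 137%, 134% and 137%. Of 16 spiral ganglion neuron genes Gata3, Isl1 and P2rx3 were listed, with Gata3 at 112%, Isl1 at 111% and P2rx3 at 181%. Stria vascularis genes Atp1b2 and Kit, 2 of 10, were called lower at 85.7% and 75.3%, and Mag, 1 of 13 Schwann cell genes, at 68.8%. Of 4 expressed red cell genes Hbb-bs and Alas2 were listed and called lower. Hbb-bs, a beta globin with a near-identical copy, was at 66.09, 72.85 and 79.79 FPKM in WT, 75.77, 34.79 and 55.28 in HET and 34.76, 25.11 and 35.23 in HOM, and Alas2, which starts haem synthesis in red cells, kept 60.9%. Red cell markers summed to between 109.8 and 170.6 FPKM in WT, and the part of blood in other results was not tested. Cd68, a macrophage marker, was at 128% of WT, the 1 listed of 10. Egr1, the 1 listed of 8 immediate early genes, kept 75.7% in HOM and was at 77.3% in HET. Leaving out 1 library ended the call of Gjb2 (WT 2 or WT 3), Gjb6 (WT 2), Dcn and Fmod (WT 1 or WT 2), Gata3 (WT 1), Isl1 (HOM 1, WT 2 or WT 3), Kit (WT 1), Mag (HOM 1, WT 1 or WT 3), Alas2 (WT 1 or WT 2) and Cd68 (HOM 1, WT 1 or WT 2), with adjusted p of at most 0.076, for Alas2. Under the other scalings Kit, Mag, Alas2 and Atp1b2 did not pass, nor Egr1 under upper-quartile scaling, and Mag and Cd68 did not pass with HET in the fit (adjusted p = 0.14 and 0.080).

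Whole groups of genes were absent from the list. None of the expressed members was listed among 76 ribosomal protein genes, 87 respiratory chain genes, 17 cell cycle genes, 16 mitochondrially encoded genes, 13 histones, 9 endothelial genes or 8 genes of the unfolded protein response. Of 37 expressed collagens only Col4a4 was listed, and of 36 potassium channels 7 were, all called lower (65.4% of all tested genes). Over all 14110 genes expressed in WT, 1102 were listed, or 7.81%. Since selection needed a small spread as well as a difference, absence from the list does not show that a gene was level.

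Listed genes were denser on chromosome 18, where Pou4f3 lies. There 50 of 368 expressed genes were listed (13.6%), 26 higher and 24 lower, against 5.51% to 10.5% on the other chromosomes. Within 1 Mb of Pou4f3 3 of 8 expressed genes were listed, namely Ppp2r2b, a phosphatase subunit, Sh3rf2, a scaffold and ubiquitin ligase, and the hair cell gene Grxcr2. With Pou4f3 itself set aside, from 1 to 5 Mb 7 of 50 were listed (14.0%), from 5 to 10 Mb 11 of 67 (16.4%), from 10 to 20 Mb 13 of 82 (15.9%) and beyond 20 Mb 15 of 160 (9.38%). Ppp2r2b was at 11.65, 12.52 and 12.49 FPKM in WT and 9.65, 7.92 and 10.76 in HOM, and Sh3rf2 at 1.41, 2.10 and 1.22 in WT and 0.75, 0.93 and 0.74 in HOM; neither passed under upper-quartile scaling, and Ppp2r2b lost its call without WT 2 or WT 3 (adjusted p up to 0.060). Trim36, a ubiquitin ligase 3.77 Mb away that was picked after its value was seen, fell from 13.84, 14.13 and 13.93 to 3.79, 2.19 and 3.77 (-1.84 ± 0.16), with HET at 111% of WT. Of the 14 named rises 3 lie on this chromosome: Gnpda1 at 4.06 Mb, Srfbp1 at 10.1 Mb and Ttr at 21.7 Mb from Pou4f3. The part of the strain background around the allele in these values was not tested.

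**Figure D5:**
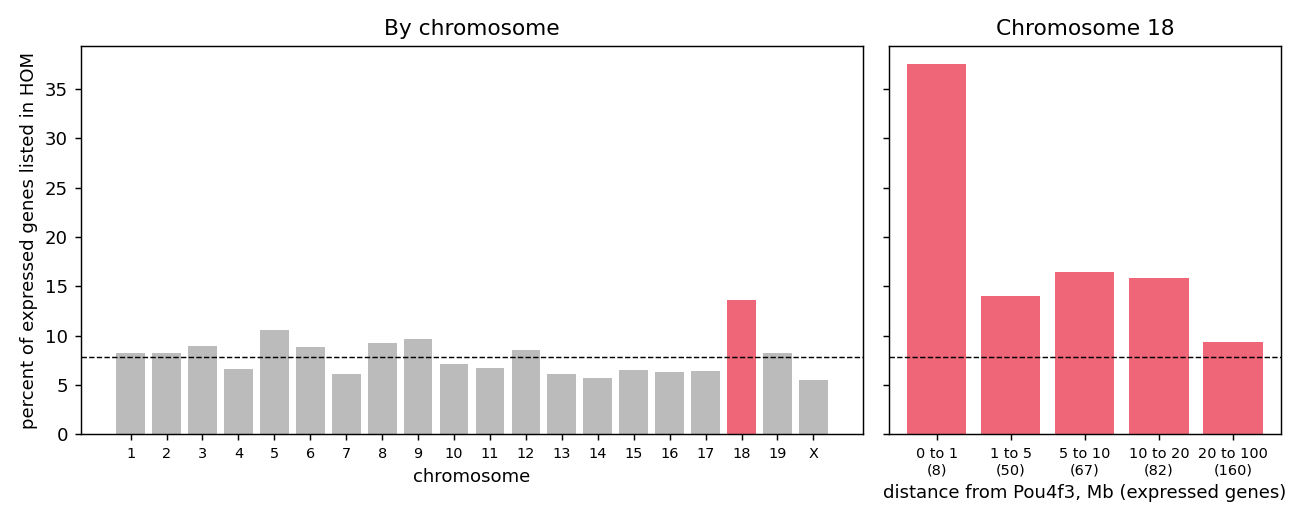
The percent of genes expressed in WT that are listed in HOM, by chromosome (left) and by distance from Pou4f3 along chromosome 18 (right; the number of expressed genes is in parentheses); the dashed line is the 7.81% of all expressed genes. Chromosome 18 stands at 13.6%, and its bars within 20 Mb lie between 14.0% and 37.5%.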

How the data were processed

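RNA was taken from cochleae at postnatal day 3, per the labels' protocols, with poly(A) selection or rRNA removal (which of them is not said), random priming and Illumina HiSeq sequencing. The authors deposited FPKM values with 2 decimals in 1 file per library, and, per the submitters' processing notes, DESeq2 and mm8 were used. The aligner, counter, strand setting and annotation are not stated in the sources used here. Of the 1137 identifiers listed in HOM, 1136 matched GENCODE M21 on GRCm38, which gives all coordinates except promoters (RefSeq, GRCm38.p6).

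Depth was recovered from the step between low FPKM values times exon length, chosen so that 99.3% to 100% of low values were whole fragments within 0.1, which is therefore no independent check. Those low values number 21, 24 and 26 in HOM. Counting intervals (95%) use these fragments and cover counting error only. No read counts were used in a test.

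HOM and WT, grouped by title, were compared with limma 3.58.1 in R 4.3.3 (mean-variance trend, no covariate) on log2(FPKM + 1), which understates the change of low genes, in genes that reached 1 FPKM in 3 or more of the 6 libraries. Tests are two-sided, with Benjamini-Hochberg adjustment over the 1109 genes tested and a threshold of 0.05; a ± after a change is a standard error with n = 3 against 3. The fit holds a single variance per gene for both groups, although hair cell genes spread more in HOM than in WT. Leaving out a library also lowers the number of libraries, so a lost call need not mean a changed size. The scripts were tested on simulated data. "Kept" is the HOM mean FPKM as a percent of the WT mean. Adjustment over genes chosen on this contrast corrects less than one over all genes.

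Members and gene lists were chosen with earlier results of these data known. Genes were named by rule: Pou4f3, the 20 largest falls and 15 largest rises with the larger mean at 3 FPKM or more, listed members of the gene lists, the 3 largest falls and rises of noncoding or predicted genes, the 5 widest HOM spreads and the 3 smallest changes each way; not all are printed, and some withheld items are not reported here. Alternatives were another pseudocount, no filter, 2 scalings, no trend, HET in the fit, a replicate block and leaving out each library.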

Additional observations from a re-analysis of the deposited data

How the results depend on the processing

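The count of 1032 called genes fell to 653 with median-ratio scaling (54.2% of them higher in HOM) and to 642 with upper-quartile scaling (58.6%), against 29.7% higher as deposited. It was between 689 and 864 when 1 library was left out. The median change of -0.22 became -0.27 with a pseudocount of 0.1, -0.23 without a filter, -0.042 with median-ratio scaling and -0.0087 with upper-quartile scaling; these scalings use the listed genes alone. Genes that fell by 1 log2 unit or more numbered 191 with a pseudocount of 0.1. The level kept by hair cell genes stayed between 21.5% and 30.0%.

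Of 111 named genes tested, 72 kept their direction and call under all 13 alternatives. Direction turned under median-ratio and upper-quartile scaling, in this order, for Ush1c (0.080 and 0.12), Pls1 (0.074 and 0.11), Nr2f2 (0.12 and 0.16), Spry2 (0.032 and 0.069), Atp1b2 (0.00038 and 0.039) and Phldb1 (0.15 and 0.19), and for Ctbp2 under the latter (0.0014). Most listed genes were lower in HOM, so these scalings raise small falls by construction, and no other cause was tested.

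Same-numbered HOM and WT deviations from the group means correlated at 0.247, 0.094 and 0.275, each the highest for its HOM library. Differently numbered ones correlated at -0.293 to 0.105. What libraries of the same number share is not stated in the sources used here. With the replicate number as a block 909 genes were called, and no named gene lost its call. Depth limits the genes with few fragments in HOM, among them Plscr5 and Mir208a.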
